A study of Mus musculus with 4 samples.

Results

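Expression of the tumour necrosis factor (TNF) superfamily was followed in mouse cDC1 (type 1 conventional dendritic cells), which present antigen of dead cells to CD8 T cells. Members were probe sets whose gene symbol begins with Tnfsf or Tnfrsf, together with Tnf, Lta, Ltb, Ltbr, Cd40, Cd40lg, Cd70, Cd27, Fas and Fasl. This gave 41 of 41345 probe sets, of which 39 name a single gene, 15 ligands and 24 receptors among 17243 named genes. The groups were wild-type (WT) cells with lipopolysaccharide (LPS), WT cells with LPS and recombinant mouse XCL1 (rmXCL1), XCR1-deficient (KO) cells with LPS, and KO cells with LPS and rmXCL1. LPS, a bacterial ligand of Toll-like receptor 4, was given at 100 ng/ml to every group, so no array shows cells without it. XCL1, the chemokine ligand of the receptor XCR1, was also given at 100 ng/ml. All mice were C57BL/6, aged 10 weeks and labelled female. The tissue, the length of treatment and the allele that makes the mice XCR1-deficient are not stated in the sources used here. Each group had 1 array, so no difference has a replicate, an error or a p-value, and the number of arrays limits the precision.

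Ligands of the TNF superfamily are mostly membrane proteins that act as trimers, and some are shed. Receptors of the family bind them through cysteine-rich repeats. One class carries a death domain and can start apoptosis or NF-kB signalling, another binds TRAF adaptors, and decoys bind ligand without signalling. In dendritic cells CD40 receives the help signal of T cells, while CD70, OX40L and 4-1BBL on the dendritic cell co-stimulate T cells.

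Members that differed 1.5-fold between the genotypes with LPS and XCL1 were Tnfsf10, which encodes the death ligand TRAIL, Cd27, the receptor of CD70, and Tnfrsf9, which encodes 4-1BB. Their promoters are shown as the 250 bases before the RefSeq start (GRCm38.p6), 5′ to 3′ on the strand of the gene. Capitals mark matches to any of 4 motifs searched on both strands. These were the interferon-stimulated response element core (GAAANNGAAA), the PU.1 and IRF composite element (GGAANNGAAA), the gamma-activated site (TTCNNNGAA) and the NF-kB consensus, chosen after promoters of members had been seen. The Tnfsf10 window is chr3:27316827-27317076 on the plus strand and that of Cd27 chr6:125237028-125237277 on the minus strand. Tnfrsf9 has 2 windows in the RefSeq table, and the one shown, chr4:150927749-150927998 on the plus strand, is the one with matches.
Tnfsf10: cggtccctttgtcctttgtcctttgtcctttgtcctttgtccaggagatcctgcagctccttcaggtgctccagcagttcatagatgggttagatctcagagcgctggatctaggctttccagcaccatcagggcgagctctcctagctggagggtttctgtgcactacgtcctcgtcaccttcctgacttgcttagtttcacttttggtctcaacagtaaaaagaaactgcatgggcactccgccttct
Cd27: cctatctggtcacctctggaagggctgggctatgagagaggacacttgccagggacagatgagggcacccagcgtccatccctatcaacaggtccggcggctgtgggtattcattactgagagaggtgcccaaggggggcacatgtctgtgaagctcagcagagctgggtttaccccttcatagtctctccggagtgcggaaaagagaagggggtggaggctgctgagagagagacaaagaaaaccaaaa
Tnfrsf9: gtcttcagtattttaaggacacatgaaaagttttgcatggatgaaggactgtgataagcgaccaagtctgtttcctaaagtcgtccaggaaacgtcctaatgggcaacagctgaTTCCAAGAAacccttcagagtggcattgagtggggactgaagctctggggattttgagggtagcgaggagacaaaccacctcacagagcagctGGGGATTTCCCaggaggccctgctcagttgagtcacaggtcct
No motif matched the windows of Tnfsf10 and Cd27. In Tnfrsf9 the NF-kB consensus matched at bases -43 to -34 and, overlapping it, at -42 to -33, and the gamma-activated site at -136 to -128, counted back from the start. Of 36 windows of 32 member genes, 4 (11.1%) held the NF-kB consensus, those of Ltb, Tnfrsf25, Tnfrsf8 and Tnfrsf9, against 7.25% of all 32851 windows. A gamma-activated site lay in 8 member windows (22.2%, against 7.02% of all). The response element core lay in 4 (11.1%, against 2.98%), those of Tnfrsf14, Tnfrsf17, Tnfrsf1b and Tnfsf13b, and the composite element in 0 (against 2.30%). A match describes the letters of these windows and no binding was measured.

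Signals are log2 values after RMA, and a difference is counted where 2 arrays differ at least 1.5-fold (0.58 on the log2 scale). Only genes that reached 5.43, the overall median of the table, in any group were counted, 11057 of 17243 named genes. Of the 39 members, 30 passed this limit, 9 ligands and 21 receptors, and 28 did so on all 4 arrays. Probe sets differ in how brightly they bind, so signals are compared between arrays and not between genes. Below the limit in every group were the ligands Cd40lg, Cd70, Tnfsf11, Tnfsf13b, Tnfsf14 and Tnfsf18 and the receptors Tnfrsf17, Tnfrsf19 and Tnfrsf25.

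The arrays were close to each other, with correlations across genes from 0.983 to 0.993. Xcr1 itself gave log2 signals of 6.42 and 7.19 on the WT arrays and 5.54 and 5.11 on the KO arrays, the direction of the genotype labels. Of 13 cDC1 markers analysed, 12 passed the limit, among them Irf8, Batf3, Flt3 and Cd8a, while Itgae (CD103) did not. Markers of other cells passed it too, 11 of 11 for B cells, 7 of 9 for T cells, 7 of 9 for natural killer (NK) cells and 8 of 8 for plasmacytoid dendritic cells. Of 9 erythroid markers 4 were analysed, and all 4 passed it. In KO minus WT their medians were 1.18 with LPS and 1.14 with LPS and XCL1. By 1.5-fold 3 and 4 of them were higher, against 111 and 183 of all 11057 genes. Xist, which marks cells with an inactive X, gave 7.95 and 7.91 in WT and 4.64 and 4.57 in KO, against the female label of the KO mice. The Y-linked genes Eif2s3y, Kdm5d and Uty gave signals from 7.01 to 8.89 on the 4 arrays, against the label of both genotypes. Whether these probe sets also read X-linked relatives was not tested. The array names in the labels carry 2 prefixes with 0 shared between the genotypes. Sex of the cells, array name prefix and genotype therefore cannot be told apart in any difference between KO and WT given here. Whether the prefix marks a batch is not known here. In bulk RNA, fewer cells of a type and less RNA per cell cannot be told apart either.

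**Figure D1:**
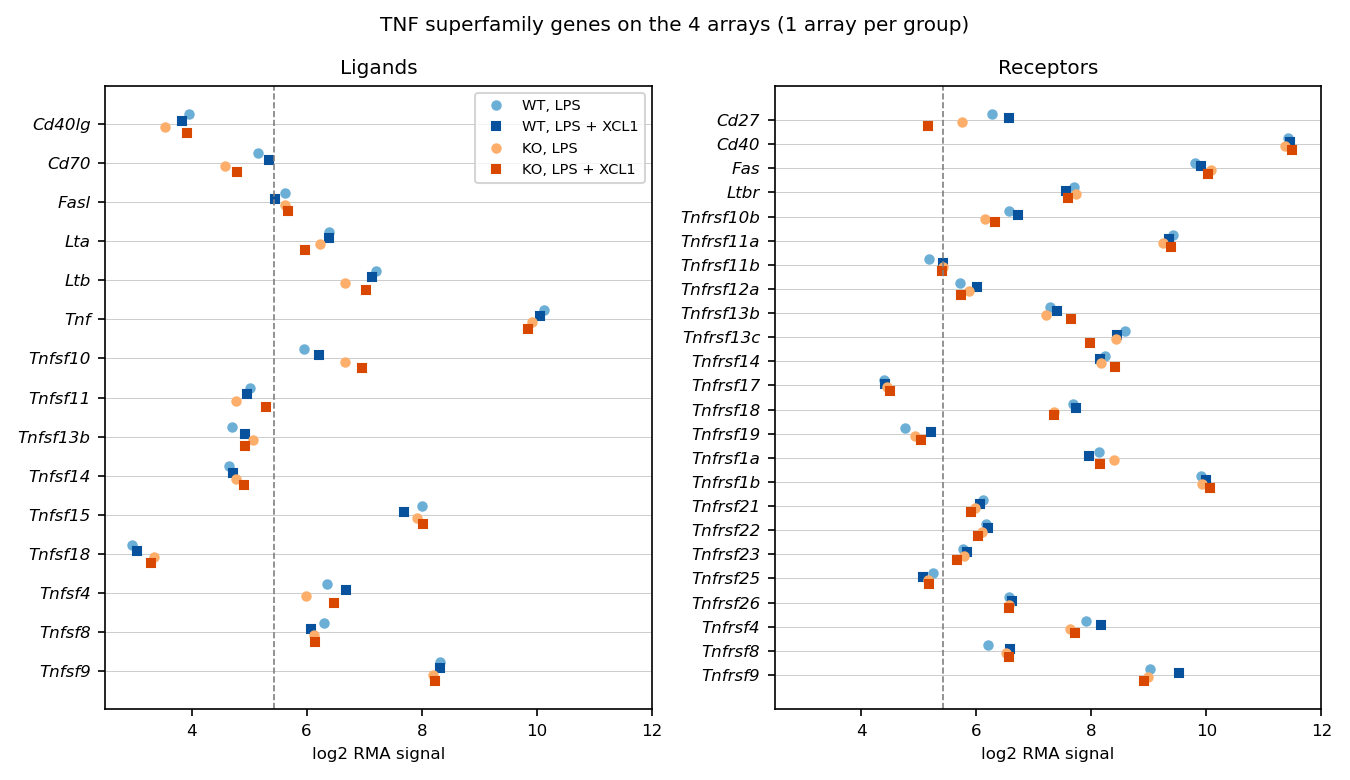
Log2 RMA signal (x axis) of each TNF superfamily gene with its own probe set (rows), for 15 ligands and 24 receptors, with 1 point per array; the dashed line is the limit of 5.43. Most genes have 4 points close together, while Tnfsf10 lies higher on both KO arrays and Cd27 lower.

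The genotype comparison asked how loss of XCR1 relates to expression of the family in LPS-treated cells. Tnfsf10 was higher in KO cells and Cd27 lower, while Tnf, Cd40 and most receptors were within 1.5-fold. With LPS, 1 of 30 members differed 1.5-fold, Tnfsf10, where 2.0% of all genes did. With LPS and XCL1, 3 of 30 did, Tnfsf10, Cd27 and Tnfrsf9, against 3.45% of all genes. In both pairs in the same direction 1 member did, Tnfsf10, against 0.696% of all genes. A single call among 30 is no result about the family. The median difference of the 30 members was -0.07 in both pairs, against -0.05 and -0.04 over all genes.

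Tnfsf10 (TRAIL), the ligand of the death receptor encoded by Tnfrsf10b, gave signals of 5.96 in WT with LPS, 6.21 in WT with LPS and XCL1, 6.66 in KO with LPS and 6.96 in KO with LPS and XCL1. Both KO arrays were above both WT arrays. The KO signal was 1.63-fold higher with LPS (0.70 on the log2 scale) and 1.69-fold higher with LPS and XCL1 (0.75). Among the 11057 genes, 56 had a difference at least as high in the first pair and 80 in the second, the gene itself included. Its receptor Tnfrsf10b pointed the other way, at 6.57 and 6.73 in WT and 6.16 and 6.33 in KO, a difference of -0.42 and -0.40 that stayed within 1.5-fold.

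Tnfsf10 is known as an interferon-stimulated gene. A list of 14 such genes, added after earlier results were known, had 12 on the array, and all 12 were above 0 in both genotype pairs. Of these, 2 were higher by 1.5-fold with LPS and 5 with LPS and XCL1, with medians of 0.40 and 0.49 and Cmpk2 at 1.03 and 0.92. Of all 11057 genes, 39.8% and 43.1% were above 0 in these pairs, and 111 and 183 were higher by 1.5-fold. The summed linear signal of the 12 interferon-stimulated genes was 14318 and 14771 on the WT arrays and 19034 and 20079 on the KO arrays. The part of this list in the Tnfsf10 difference was not tested.

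Cd27, a co-stimulatory receptor known from T cells and NK cells, gave signals of 6.28 in WT with LPS, 6.58 in WT with LPS and XCL1, 5.76 in KO with LPS and 5.16 in KO with LPS and XCL1. Both KO arrays were below both WT arrays, and the last signal lay under the limit. KO minus WT was -0.52 with LPS, within 1.5-fold, and -1.42 with LPS and XCL1. Set against the limit, the second difference was -1.15, so that Cd27 was at least 2.22-fold lower. Its ligand gene Cd70 was below the limit on all arrays, at 5.15, 5.34, 4.58 and 4.79 in the same order, with no fold to be given.

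T cell markers were lower on the KO arrays as well. All 7 that passed the limit were below 0 in both pairs, with medians of -0.42 and -0.47, and 2 were lower by 1.5-fold in each pair. Of all 11057 genes, 6650 and 6280 were below 0 in these pairs, and 110 and 198 were lower by 1.5-fold. Cd3e, a subunit of the T cell receptor complex, gave 8.23 and 8.32 in WT and 7.55 and 7.13 in KO. The summed linear signal of the 9 T cell markers was 913 and 931 on the WT arrays and 629 and 574 on the KO arrays. None of the 9 is at 0 on a log2 array scale, and 2 (WT, LPS), 3 (WT, LPS and XCL1), 4 (KO, LPS) and 3 (KO, LPS and XCL1) were under the limit. Between the genotypes, 2.0% and 3.45% of all genes differed 1.5-fold. For the 9 NK cell markers the sums were 1361, 1377, 1462 and 1494, with none of the 7 past the limit differing 1.5-fold. The brightest of them, Klrk1, was higher in the KO (0.35 in both pairs), while 5 and 4 of the 7 were below 0, with medians of -0.19 and -0.18 and Eomes at -0.42 and -0.38. The part of T cell and NK cell RNA in the Cd27 difference was not tested.

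Tnfrsf9 (4-1BB), an inducible co-stimulatory receptor, gave 9.02 in WT with LPS, 9.53 in WT with LPS and XCL1, 8.98 in KO with LPS and 8.91 in KO with LPS and XCL1. Only the WT array with XCL1 stood above the others. KO minus WT was -0.04 with LPS and -0.61 when XCL1 was added. Centring each array on its gene median left the second at -0.51, within 1.5-fold. Its ligand Tnfsf9 (4-1BBL) gave 8.32, 8.32, 8.20 and 8.23, with genotype differences of -0.12 and -0.09.

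**Figure D2:**
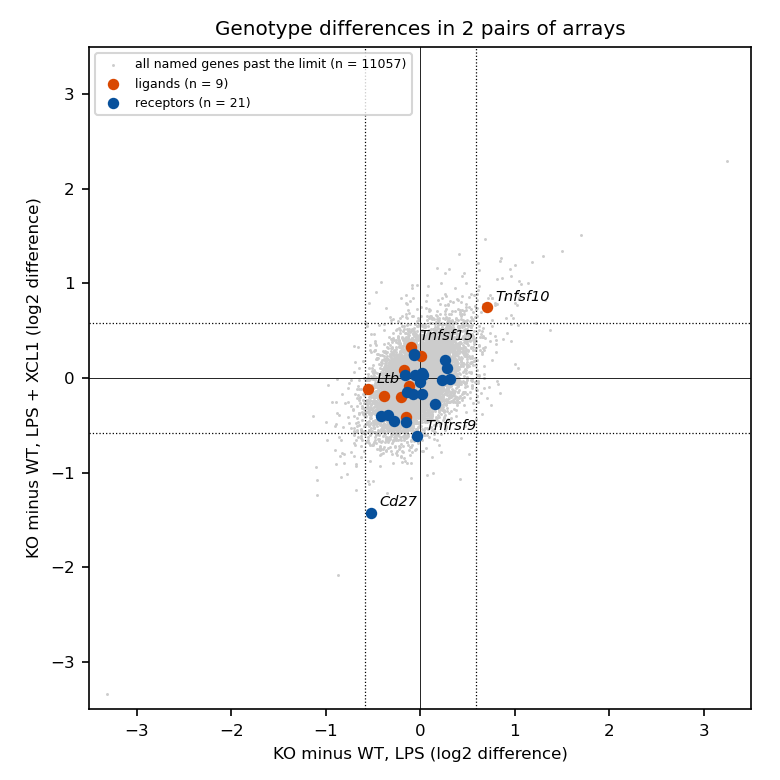
Log2 difference KO minus WT with LPS (x axis) against the same with LPS and XCL1 (y axis) for 11057 named genes (grey), 9 ligands and 21 receptors; dotted lines mark 1.5-fold. Tnfsf10 lies past 1.5-fold on both axes (0.70 and 0.75), Cd27 at -0.52 and -1.42.

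Among the other ligands, Tnf, the founding cytokine of the family, gave 10.12 and 10.05 in WT and 9.91 and 9.85 in KO. Both KO signals were lower, by differences of -0.21 and -0.20. Its neighbours on chromosome 17, Lta and Ltb, encode the lymphotoxin subunits. Lta gave 6.39 and 6.39 in WT and 6.24 and 5.98 in KO (differences of -0.15 and -0.41). Ltb gave 7.21 and 7.14 in WT and 6.66 and 7.03 in KO (-0.55 and -0.11), so its low array was KO with LPS. All 3 genes of this cluster were lower in the KO in both pairs and none reached 1.5-fold. Over all 11057 genes, 4676 were below 0 in both pairs, and 2.0% and 3.45% differed 1.5-fold. The shared sign is therefore no result about the cluster. The signs of the 3 genes were the same with cyclic loess and with centring, which left -0.0094 for Ltb with LPS and XCL1.

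Ligands that co-stimulate T cells were within 1.5-fold between the genotypes, where 2.0% and 3.45% of all genes differed 1.5-fold. The absence of calls is therefore no result about this list. Tnfsf4, which encodes OX40L, gave 6.36 and 6.68 in WT and 5.98 and 6.48 in KO (differences of -0.38 and -0.19). Tnfsf15 (TL1A), the ligand of the receptor encoded by Tnfrsf25, gave 8.01 and 7.69 in WT and 7.91 and 8.02 in KO. Its differences were -0.09 and 0.33, the former at 0.0072 with centring, and its low array was WT with XCL1. Tnfsf8, which encodes the CD30 ligand, differed by -0.18 and 0.09. Over the 4 genes of this list past the limit, the median was -0.15 with LPS and -0.0018 with LPS and XCL1, with 4 and 2 of them below 0. For all 11057 genes the medians were -0.05 and -0.04, with 6650 and 6280 below 0. Fasl, the ligand of Fas, lay close to the limit, from 5.45 to 5.68 on the 4 arrays.

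Receptors with a death domain were within 1.5-fold as well. Between the genotypes 2.0% and 3.45% of all genes differed 1.5-fold, so this is no result about the class. Fas gave 9.81 and 9.91 in WT and 10.08 and 10.02 in KO, higher in the KO by 0.28 and 0.11. Tnfrsf1a, the ubiquitous TNF receptor, gave 8.14 and 7.96 in WT and 8.40 and 8.15 in KO (differences of 0.26 and 0.19). Both were above 0 in both pairs, and Tnfrsf21 (DR6) was below 0 in both, at -0.14 and -0.15. Tnfrsf10b, given above, was the largest in size of the 4 in both pairs.

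Receptors that bind TRAF adaptors made up the largest class, with 13 of 15 past the limit. Cd40 gave 11.43 and 11.45 in WT and 11.37 and 11.49 in KO, differences of -0.06 and 0.04 whose signs changed with the scaling. Tnfrsf1b, the second TNF receptor, gave 9.90 and 10.00 in WT and 9.92 and 10.06 in KO. Tnfrsf11a (RANK), which promotes dendritic cell survival, gave 9.42, 9.35, 9.26 and 9.38 in the same order, and Ltbr, the lymphotoxin beta receptor, 7.70, 7.57, 7.74 and 7.61. Among these 4 receptors the largest genotype difference in size was -0.16, for Tnfrsf11a with LPS. Tnfrsf14 (HVEM), a receptor of LIGHT, gave 8.23, 8.16, 8.17 and 8.41. The neighbours Tnfrsf4 (OX40) and Tnfrsf18 (GITR), both known from activated and regulatory T cells, were lower in the KO in both pairs. So were 4676 of all 11057 genes. Tnfrsf4 differed by -0.28 and -0.46 and Tnfrsf18 by -0.34 and -0.39, within 1.5-fold. Tnfrsf8 (CD30) differed by 0.31 and -0.01.

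Tnfrsf13c, the BAFF receptor of B cells, gave 8.59 and 8.44 in WT and 8.44 and 7.98 in KO. It differed by -0.15 and -0.46, with the lowest signal on the KO array with XCL1. Tnfrsf13b (TACI), another B cell receptor of BAFF and APRIL, pointed the other way with XCL1, at 7.28, 7.41, 7.21 and 7.66. Of all 11057 genes, 6650 and 6280 were below 0 in the genotype pairs, and 110 and 198 were lower by 1.5-fold. B cell markers were lower on the KO arrays, with 11 of 11 below 0 in both pairs, medians of -0.44 and -0.55, and 4 and 5 lower by 1.5-fold. Their summed linear signal was 3126 and 3282 on the WT arrays and 2215 and 2205 on the KO arrays, and no B cell marker was under the limit on any array. The part of B cell RNA in these receptor signals was not tested.

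Decoy and soluble receptors were within 1.5-fold between the genotypes too, where 2.0% and 3.45% of all genes were not, which is no result about the class. Tnfrsf22 and Tnfrsf23, known as decoy receptors of TRAIL, and Tnfrsf26 lie next to each other on chromosome 7 and are related in sequence, and their probe sets could share signal. Their genotype differences ran from -0.17 to 0.02. Tnfrsf11b, which encodes osteoprotegerin, a soluble receptor of the RANK ligand, lay at the limit, from 5.19 to 5.43.

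**Figure D3:**
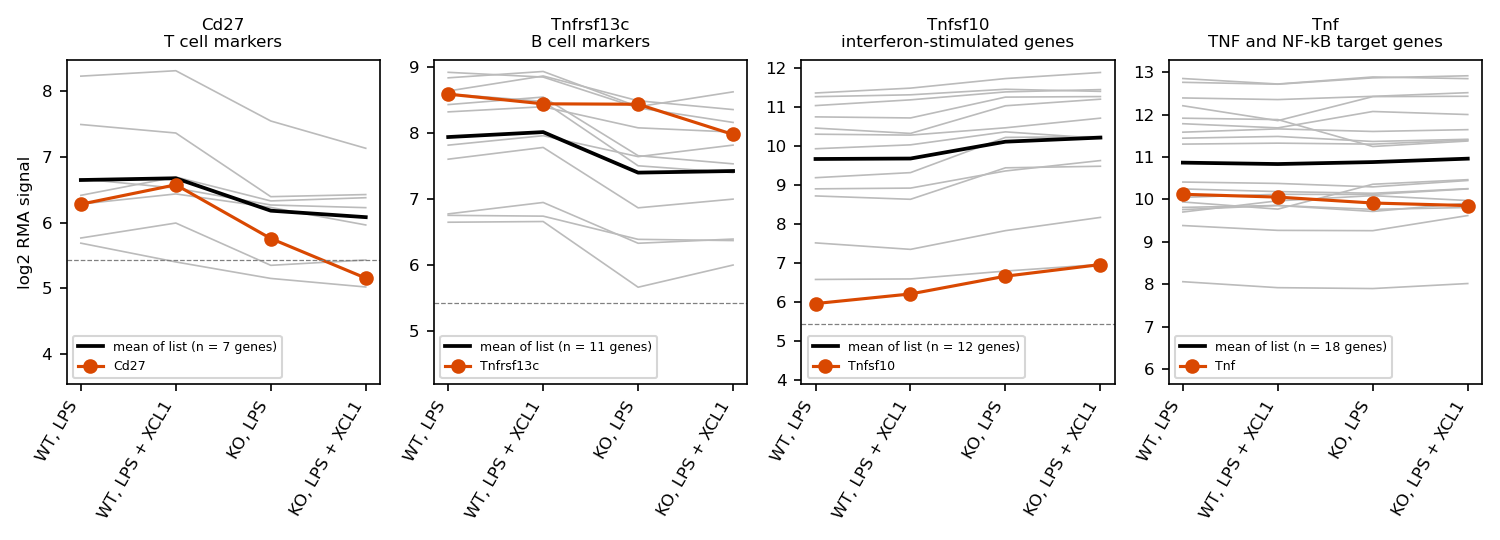
Log2 RMA signal (y axis) on the 4 arrays (x axis) of Cd27, Tnfrsf13c, Tnfsf10 and Tnf (orange), each beside a list of genes (grey lines, 1 per gene past the limit; black, their mean); the dashed line is the limit of 5.43, and lines only join the values of a gene. The T and B cell lists are lower and the interferon-stimulated list higher on the KO arrays, while the mean of the TNF and NF-kB target list lies between 10.83 and 10.96.

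Signs recurred in part between the genotype pairs, which share no array. Of the 30 members, 20 (66.7%) had the same sign in both, against 67.6% of all genes. Of these, 14 were below 0 and 6 above 0 in both pairs, against 4676 and 2796 of all 11057 genes. With centring 10 of the 30 members were below and 13 above, so the balance of signs depends on the scaling.

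The other comparison asked what XCL1 adds to LPS when its receptor is present or absent. In WT cells, 0 of 30 members differed 1.5-fold, where 0.561% of all genes did. In KO cells 1 member did, Cd27, against 1.01% of all genes. Tnfrsf9 was the member with the largest WT difference, at 0.51, followed by Tnfrsf8 at 0.39, Tnfsf15 at -0.32 and Tnfsf4 at 0.31. Among all 11057 genes, 64 had a WT difference at least as high as that of Tnfrsf9. In KO cells Tnfrsf9 differed by -0.07, Tnfrsf8 by 0.06 and Tnfsf15 by 0.10, while Tnfsf4 was higher there too, by 0.50. Others with a difference over 0.3 in size in KO cells were Tnfrsf13c (-0.46), Tnfrsf13b (0.44) and Ltb (0.36).

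Cd27 pointed in opposite directions with XCL1, with differences of 0.30 in WT cells and -0.60 in KO cells. Set against the limit, the KO difference was -0.33, within 1.5-fold. The difference between the XCL1 effects, WT minus KO, reached 1.5-fold for 1 of 30 members, Cd27 at 0.90, against 2.9% of all genes. With the low KO signal set to the limit it was 0.63. Tnfrsf9 was just under the threshold at 1.49-fold and past it with cyclic loess, at 0.60. Each of these values combines 4 single arrays and was not tested. Xcr1 itself was higher with XCL1 in WT cells, by 0.77, while its KO signals of 5.54 and 5.11 lay near and under the limit. Cd3e, of the T cell list, differed by 0.08 and -0.42, and the medians of that list were 0.08 and -0.04. In KO cells Cd3e was the lowest of the 7 past the limit, of which 3 were above 0 and 4 below.

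By class, 7 of 9 ligands were below 0 with XCL1 in WT cells and 7 of 9 above 0 in KO cells, with medians of -0.07 and 0.06. These signs depend on the scaling, since with centring 7 of 9 were below 0 in WT cells but 4 of 9 above 0 in KO cells. Over all genes 58.3% and 59.7% were above 0, with medians of 0.03 and 0.04. Of the 21 receptors, 15 and 10 were above 0, with medians of 0.07 and -0.01, and with centring 10 and 7 were. Tnf differed by -0.07 and -0.06, Cd40 by 0.02 and 0.12, and Tnfsf9 by -0.0006 and 0.03. Of the 30 members, 16 (53.3%) had the same sign in both genotypes, against 56.2% of all genes.

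**Figure D4:**
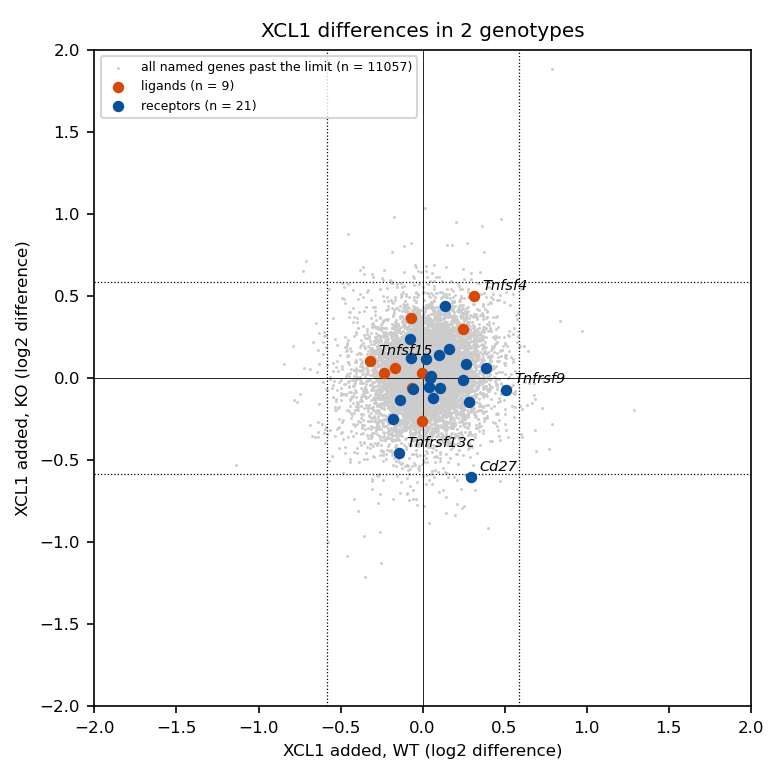
Log2 difference between LPS with and without XCL1 in WT cells (x axis) and in KO cells (y axis) for 11057 named genes (grey), 9 ligands and 21 receptors; dotted lines mark 1.5-fold. Cd27 lies at 0.30 and -0.60 and Tnfrsf9 at 0.51 and -0.07, and no member passes 1.5-fold on the x axis.

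Genes that act below the receptors were within 1.5-fold between arrays, apart from Il12b and Il6. Of 27 adaptors and kinases, 23 were analysed and passed the limit. Of all genes, 0.561% to 3.45% differed 1.5-fold across the 4 pairs of arrays. In these pairs 0 of the 23 adaptors and kinases did, which is no result about the list. Their medians were 0.0058 and -0.05 between the genotypes and -0.0048 and 0.03 with XCL1. Highest in KO minus WT with LPS were Casp8, the initiator caspase of death receptors (0.24), and its inhibitor Cflar (0.19). Lowest were Map3k14, the kinase of the alternative NF-kB pathway (-0.24), and Tab1 (-0.23). With LPS and XCL1 these places were held by Tnip1 (0.32) and Cflar (0.30), and by Map3k14 (-0.27) and Traf6 (-0.19). Traf1, an adaptor induced by NF-kB, gave 11.31, 11.36, 11.40 and 11.53.

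Enzymes that shed or process ligands and receptors numbered 6, and none differed 1.5-fold, where 0.561% to 3.45% of all genes did. Adam17, the TNF converting enzyme, gave 8.76 and 8.80 in WT and 8.45 and 8.79 in KO, with its low array KO with LPS. Adam10 gave 8.45, 8.52, 8.22 and 8.64. Furin differed by 0.25 and 0.35 between the genotypes, Sppl2a by 0.17 and 0.34, and Rhbdf1 by 0.13 and -0.27.

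Of 20 genes known as targets of TNF and NF-kB, 18 were analysed. Between the genotypes 1 differed 1.5-fold in each pair, against 2.0% and 3.45% of all genes. Il12b, which encodes the shared subunit of IL-12 and IL-23, gave 11.91 and 11.88 in WT and 11.25 and 11.38 in KO, differences of -0.67 and -0.51. Il6 gave 9.94 and 9.77 in WT and 10.36 and 10.47 in KO (0.42 and 0.69). Il1b differed by 0.22 and 0.57, Ier3 by 0.39 and 0.01, Bcl2l1 by -0.16 and 0.10 and Cd83 by -0.08 and -0.07. With XCL1, 0 of 18 differed 1.5-fold in either genotype (0.561% and 1.01% of all genes), with medians of -0.04 in WT and 0.09 in KO. Macrophage and monocyte markers were above 0 in 6 and 7 of 9 in KO minus WT, with summed linear signals of 2166 and 2153 in WT and 2389 and 2623 in KO. Only Fcgr1, which encodes an Fc receptor, differed 1.5-fold among them (1.00 and 1.19), and with LPS Csf1r (-0.32) and Lyz2 (-0.23) pointed the other way. Neutrophil markers had medians of 0.26 and 0.38 over the 7 past the limit, of which 6 lay above 0 in each pair and 1 and 3 were higher by 1.5-fold. Of all 11057 genes, 39.8% and 43.1% were above 0, and 111 and 183 were higher by 1.5-fold. The part of macrophage, monocyte and neutrophil RNA in the cytokine differences was not tested.

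Many members lie side by side in the genome. In the RefSeq table (GRCm38.p6), 24 of 42 coding genes that fit the symbols form 9 clusters, with at most 3 coding genes between neighbours. The Cd27 cluster on chromosome 6 also holds Ltbr and Tnfrsf1a, with 1 coding gene between each. KO minus WT with LPS and XCL1 was -1.42 for Cd27 (-1.15 against the limit), 0.04 for Ltbr and 0.19 for Tnfrsf1a. The cluster of Tnfsf9, Cd70 and Tnfsf14 on chromosome 17 holds 1 ligand past the limit, and that of Tnfsf4, Tnfsf18 and Fasl on chromosome 1 holds 2.

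Members without a usable value complete the account. A probe set shared by Tnfsfm13, Tnfsf13 and Tnfsf12 gave 4.80, 4.92, 5.16 and 4.93, and one shared by Tnfrsf18 and Gm16008 gave 5.49, 5.24, 4.94 and 4.86. These are not counted. Below the limit, signals of Tnfsf13b (BAFF) ran from 4.69 to 5.07, those of Tnfsf11 (RANK ligand) from 4.78 to 5.30 and those of Cd40lg from 3.54 to 3.96. Tnfsf14 lay between 4.66 and 4.91, Tnfsf18 between 2.96 and 3.35, Tnfrsf17 between 4.40 and 4.50, Tnfrsf19 between 4.76 and 5.21 and Tnfrsf25 between 5.07 and 5.26. The remaining receptor past the limit, Tnfrsf12a (Fn14), gave 5.73, 6.01, 5.88 and 5.73.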

How the data were processed

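Total RNA from 4 samples was hybridised to MoGene 2.0 ST arrays after TRIzol extraction, per the labels' protocols. The authors deposited RMA values on the log2 scale, 1 per probe set of a gene, per the labels' descriptions. RMA equalises the arrays, so a shift of most genes cannot be seen. The software and the build of the annotation are not named in the sources used here. Array medians ran from 5.40 to 5.44.

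Of 41345 probe sets, 25335 were listed in the annotation table, 23521 of them under a single symbol and 1814 under several, which left 16010 unnamed here. Member symbols were the same in RefSeq for 41 of 41. The background leaves out olfactory receptors, receptor segments, small RNAs and predicted genes, and the probe set with the highest mean represented a gene. Differences between single arrays were counted at 1.5-fold with no test, also over all genes. Log2 differences are as measured, and a fold against a signal below the limit is given against the limit. The counting code was run on simulated arrays with a noise level set by hand. That run does not measure false calls between these single arrays.

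Members, lists and rules were chosen with earlier results of these data known. Values on all 4 arrays were to be given for members that differ 1.5-fold in a pair, the 10 with the highest mean signal, and 13 fixed names (Tnf, Lta, Ltb, Cd40, Cd70, Tnfsf4, Tnfsf9, Tnfsf10, Tnfsf15, Tnfrsf1a, Tnfrsf1b, Ltbr and Fas). Tnfrsf13b, Tnfrsf10b, Tnfrsf14, Traf1, Cd3e, Xcr1, Xist and Y-linked genes were added after their values were seen. Lists for cDC2, neutrophil and erythroid markers had summed linear signals of 1379, 1309, 1254 and 1499; 1171, 1093, 1454 and 1660; and 185, 191, 435 and 429 on the arrays of WT with LPS, WT with both, KO with LPS and KO with both, those of plasmacytoid cells 3725, 3847, 3822 and 4247. The last sum rises with Bst2, which differed by 0.30 and 0.78 between genotypes, while 5 and 4 of the 8 plasmacytoid markers were below 0, with medians of -0.24 in both pairs. Alternatives were a 2-fold threshold, no limit and a stricter limit at the 75th percentile (6.91), limma's cyclic loess (version 3.58.1, span 0.7, 3 iterations), centring on the gene median, the mean of probe sets, and raising dim signals to the limit. Python 3.11.15 and R 4.3.3 were used.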

Additional observations from a re-analysis of the deposited data

Results flagged for a closer look

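Cd27 is set apart because the XCL1 difference pointed in opposite directions in the genotypes, 0.30 in WT cells and -0.60 in KO cells, 0.90 apart as measured and 0.63 with the low KO signal set to the limit. Each direction rests on 1 pair of arrays, the KO signal with XCL1 (5.16) was under the limit, and the difference was not tested.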

How the results depend on the processing

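No paired analysis was possible because each group has 1 array and the labels give no replicate numbers, and no array could be left out for the same reason. The count of members that differed with XCL1 in WT was 0 under each alternative, where 0.0181% to 1.02% of all genes did. The 2-fold threshold, the stricter limit, the mean of probe sets and raised dim signals could not have made it larger. At a 2-fold threshold the count was 0 for XCL1 in KO, 0 for KO against WT with LPS, 1 with LPS and XCL1 (Cd27), 0 for the difference of the XCL1 effects and 0 in both genotype pairs. Over all genes the shares were 0.0543%, 0.208%, 0.38%, 0.199% and 0.0904% in the same order, so these counts are no result about the family. With the stricter limit, which Cd27 does not pass, the count was 0 for XCL1 in KO and 0 for the difference of the XCL1 effects, against 0.426% and 1.18% of all genes. With dim signals raised to the limit it was 0 for XCL1 in KO (0.597% of all genes), where the lower Cd27 signal is under the limit. With cyclic loess it was 2 for the difference of the XCL1 effects (2.86% of all genes), with Tnfrsf9 added. The other counts were within 1.5 times. Of 288 values of 18 named members under 4 alternatives, 284 kept their side of the 1.5-fold threshold, 2 dropped under it, 2 passed it (Cd70, below the limit on all arrays, at -0.61 and -0.60 between genotypes with cyclic loess), and 0 called values changed sign. Much of this was fixed in advance. No member has several probe sets, so taking their mean could not change a value. Raising dim signals changes only members with a signal under the limit. Centring added 0.101 and 0.105 to each genotype difference and took 0.07 from each XCL1 difference, which changed the sign of several small values. The table holds no detection flags, so signals near 5.43, among them Fasl, Tnfrsf11b and Cd27 in the KO, have no measured background.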
